A study of Homo sapiens with 9 samples.

Results

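Cholesterol and fatty acid synthesis was followed through 32 genes in LAN5 cells after knockdown of MYCN or of HAND2. LAN5 is an established human neuroblastoma cell line with amplified MYCN. The 32 genes were picked by name from the 25084 genes of the deposited expression table, and each was found there once. They comprise 18 enzymes that make cholesterol from acetyl-CoA, 5 genes that sense sterols or carry the SREBP response, 2 sterol carrier or sterol-binding proteins, and 7 enzymes that make, elongate or desaturate fatty acids. Some other genes of these pathways are not analysed here. RNA was sequenced from 3 groups of 3 libraries each, all from LAN5 cells that had been nucleofected (a form of electroporation) with small interfering RNA and grown in regular medium with serum for 72 h. One group received a control siRNA (siCTR), one an siRNA against MYCN labelled siMYCN_2, and one an siRNA against HAND2 labelled siHAND2_3. MYCN and HAND2 are transcription factors of the basic helix-loop-helix class, and the series asks which genes they regulate in these cells. A single line and 1 siRNA per target were used, the labels do not say whether replicates were separate cultures, and all p-values therefore measure the spread between these libraries, which may be technical.

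Cholesterol is built from acetyl-CoA through the mevalonate pathway, which ends in the isoprenoid farnesyl diphosphate. The branch of enzymes after it makes squalene, closes the rings and trims lanosterol to cholesterol. When sterols in the endoplasmic reticulum run low, the escort protein SCAP carries the membrane-bound precursors of SREBP-1 and SREBP-2 to the Golgi for cleavage, and the released factors switch on genes of both pathways. INSIG proteins hold SCAP back when sterols are plentiful. Fatty acid synthesis also starts from acetyl-CoA, which ATP citrate lyase makes in the cytosol, and it supplies membrane lipids of dividing cells. Cells in serum can also take up lipoprotein cholesterol and lipids, so transcript levels do not measure the flux through either pathway.

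Levels are given in CPM (the reads of a gene scaled to a common library total), as the authors deposited them, with the SD over 3 libraries. The smallest step between low CPM values put the depth at 21.1 M to 32.7 M reads per library. The targeted genes were both lower with their own siRNA. MYCN was at 1842 ± 54.2 CPM (SD, n = 3) in siCTR, 1289 ± 47.0 CPM in siMYCN and 914.5 ± 48.4 CPM in siHAND2, so the siHAND2 libraries had less MYCN transcript than those treated with the siRNA against MYCN. HAND2 was at 501.3 ± 13.7 CPM in siCTR, 571.0 ± 15.9 CPM in siMYCN and 271.6 ± 7.65 CPM in siHAND2. Because both transcripts were lower in siHAND2, the contributions of HAND2 and of MYCN to any siHAND2 difference cannot be told apart. HAND2 was higher with siMYCN (log2 fold change 0.19, limma, adjusted p = 0.00183), so the same holds for the siMYCN differences. All 7 neuroblastoma and chromaffin markers were measured, with a summed level of 1979 to 2116 CPM in siCTR, 2519 to 2603 CPM in siMYCN and 2066 to 2174 CPM in siHAND2. Single markers of that list moved apart, counted at an adjusted p under 0.05 in the fit described below. With siMYCN 6 of the 7 rose, beside 24.5% of all genes tested. With siHAND2 2 rose (STMN2 by 0.95 and GAP43 by 0.77 on the log2(CPM + 1) scale) and 2 fell (DBH by 1.01 and TH by 0.70). Of all genes tested, 18.1% rose and 11.8% fell with siHAND2. TH was low, at 2.95 ± 0.363 CPM in siCTR and 1.43 ± 0.219 CPM in siHAND2. That was 48.6% of its siCTR mean, beside 49.4% for DBH. The summed levels of the 4 Schwann cell and glial markers were at most 2.68 CPM in any library. The 3 endothelial markers summed to at most 1.19 CPM and the 2 leukocyte markers to at most 0.655 CPM. The 4 fibroblast markers summed to 89.8 to 96.0 CPM in siCTR, 101.6 to 111.0 CPM in siMYCN and 179.2 to 214.0 CPM in siHAND2. PDGFRB made up most of that sum and rose with siHAND2, from 89.8 ± 3.07 to 178.8 ± 17.3 CPM. DCN rose in both comparisons, from 0.431 ± 0.0794 CPM to 1.30 ± 0.274 with siMYCN and 11.0 ± 0.781 with siHAND2. COL3A1 also rose in both, from 1.42 ± 0.25 CPM to 4.19 ± 0.251 with siMYCN and 3.84 ± 0.271 with siHAND2, while COL1A1, another fibroblast collagen gene, was below 1 CPM in all 9 libraries. The part of these marker differences in the results was not tested. In bulk RNA, fewer cells that express a gene and less RNA of it per cell cannot be told apart.

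The third siHAND2 library stood apart from the other two in a way that touched these genes. In each siHAND2 library the deviation of a gene from the group mean was set against the GC content of its canonical transcript. Over 12892 genes Pearson's r was −0.61 in replicate 3, 0.41 in replicate 1 and 0.32 in replicate 2. Over the 32 lipid synthesis genes it was −0.86, 0.71 and 0.69. These points share libraries and the deviations of 3 replicates sum to zero, so the values are descriptions. FASN, with a GC content of 65.3%, lay 0.27 below the siHAND2 mean on the log2 scale in replicate 3, and STARD4, with the lowest GC content of the 32 genes (34.4%), lay 0.20 above it. The siMYCN replicate 1 library had an r of 0.36 over all genes and 0.72 over the 32. Calls among the 32 genes in siHAND2 against siCTR, and most of those against siMYCN, are therefore given with and without replicate 3. Values of the markers and of single genes in the further lists are given with all 3 siHAND2 libraries only.

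**Figure D1:**
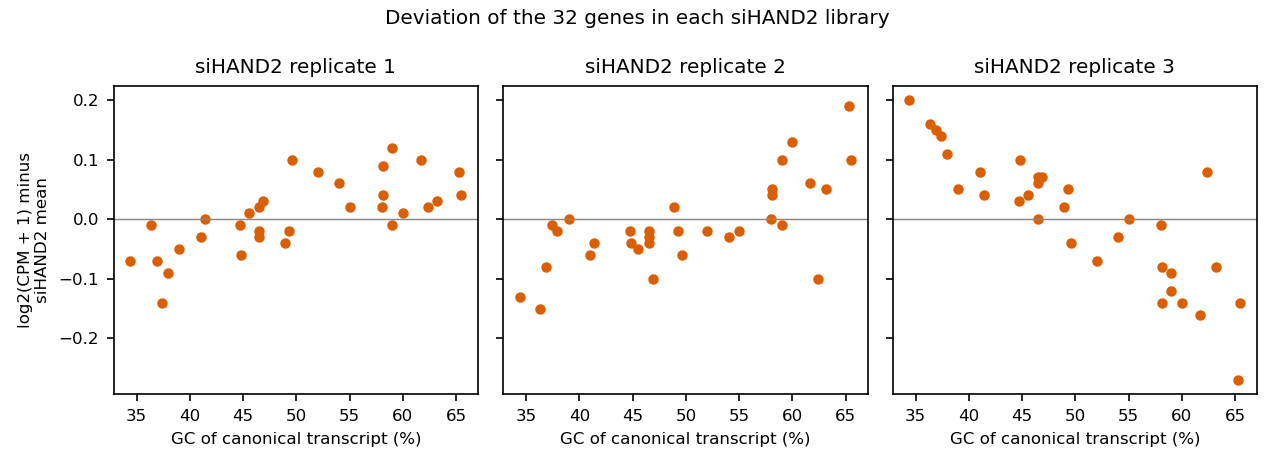
Deviation of each of the 32 genes from the siHAND2 mean on the log2(CPM + 1) scale (vertical axis) against the GC content of its canonical transcript in percent (horizontal axis), 1 panel per siHAND2 library and 1 point per gene. Replicate 3 slopes down, with FASN lowest at −0.27 and STARD4 highest at 0.20, while replicates 1 and 2 slope up.

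All 32 genes were expressed in control cells. Divided by the length of the canonical transcript, so that genes can be compared, the siCTR levels ran from 5.27 ± 0.245 CPM per kb for SREBF1 to 147.9 ± 2.95 CPM per kb for ACLY, which makes cytosolic acetyl-CoA. The next were FDFT1, the squalene synthase, at 125.1 ± 3.01 CPM per kb and SCD, the stearoyl-CoA desaturase, at 124.1 ± 6.45 CPM per kb. Those levels did not differ beyond their spread. FADS2 followed at 112.6 ± 2.96 CPM per kb and FDPS, which makes farnesyl diphosphate, at 105.7 ± 5.43 CPM per kb. At the lower end, above SREBF1, stood the mevalonate kinase gene MVK at 7.65 ± 0.296 CPM per kb and TM7SF2, a sterol C14 reductase, at 8.16 ± 0.674 CPM per kb, whose ranges also overlapped. SREBF2, which encodes SREBP-2, the form most tied to cholesterol genes, was at 31.2 ± 1.01 CPM per kb, near SCAP at 31.0 ± 1.35 CPM per kb and far above SREBF1.

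Differences between groups were fitted with limma on log2(CPM + 1) over the 14495 genes that reached 1 CPM in 3 or more libraries, and all 32 genes passed that filter in every group. A gene is called when its Benjamini-Hochberg adjusted p, taken over all genes tested, is under 0.05. Log2 fold changes are given with their standard errors, and those of genes near 1 CPM are understated on this scale. The comparisons of siMYCN and of siHAND2 with siCTR share the same 3 control libraries, so similar values in both are not independent of each other. Several of the 32 genes overlap a gene on the opposite strand in the table: ACAT2 overlaps TCP1 and SOD2, MVK overlaps MMAB, STARD4 overlaps STARD4-AS1, SREBF1 overlaps RAI1, TMEM97 overlaps IFT20, and FADS1 overlaps FADS2. FADS2 and FEN1 overlap on the same strand. FDPS and HSD17B7 have related pseudogenes. Neither the use of strand nor the handling of reads that match several genes is given in the sources used here, so the levels of these genes are uncertain to that extent.

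**Figure D2:**
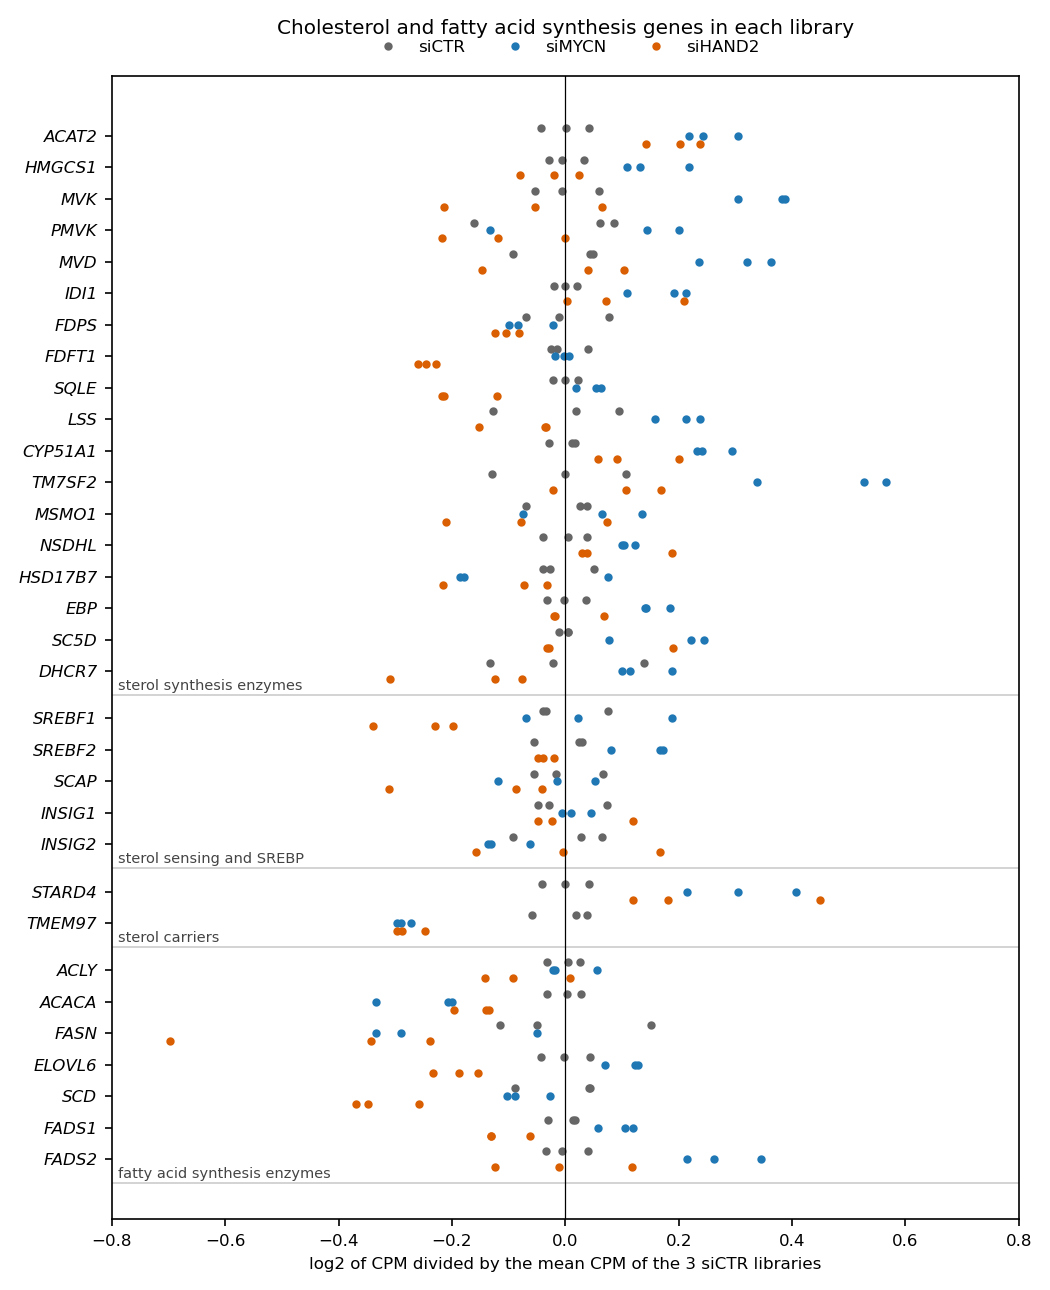
Level of each of the 32 genes in every library as log2 of its CPM divided by the mean CPM of the 3 siCTR libraries (horizontal axis), 1 point per library and 1 line per gene, grouped by role. The siMYCN points of TM7SF2, MVK and MVD lie right of all their siCTR points, and the siHAND2 points of FASN, SCD and FDFT1 lie left of all theirs.

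With siMYCN, 13 of the 32 genes rose and 2 fell, and 17 did not pass the test. That is 46.9% called, beside 35.9% of all genes tested. By direction, 24.5% of all genes tested rose and 11.4% fell. The median log2 fold change was 0.099 over the 32 genes and 0.06 over all genes tested. The rises were mainly in the sterol pathway, where 10 of 18 enzymes rose, none fell and 8 did not pass. Of the 5 sensing genes only SREBF2 was called, of the sterol carriers STARD4 rose and TMEM97 fell, and of the 7 fatty acid enzymes FADS2 rose and ACACA fell. The libraries of siMYCN and siCTR did not overlap for 18 of the 32 genes (16 with siMYCN above and 2 below), as for 49.5% of all genes tested (33.4% above and 16.1% below).

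Enzymes of the mevalonate part rose by small amounts. MVK (chr12:109573255-109598125, plus strand; positions are those of the table, on GRCh38) phosphorylates mevalonate. Its levels were 20.9, 22.6 and 21.6 CPM in siCTR and 28.4, 26.8 and 28.3 CPM in siMYCN. The groups did not overlap, and the log2 fold change was 0.35 ± 0.07 (limma, adjusted p = 0.000894). MVD (chr16:88651935-88663161, minus strand), which decarboxylates mevalonate diphosphate, was at 30.1, 33.2 and 33.1 CPM in siCTR and 41.3, 37.8 and 40.1 CPM in siMYCN. Every siMYCN library was again the higher, with a log2 fold change of 0.30 ± 0.07 (adjusted p = 0.0022). ACAT2, which condenses acetyl-CoA at the head of the pathway, rose from 113.8 ± 3.31 to 135.9 ± 4.19 CPM. HMGCS1, the cytosolic HMG-CoA synthase, rose from 253.4 ± 5.53 to 281.8 ± 11.4 CPM (log2 fold change 0.15, adjusted p = 0.0108), and IDI1, which isomerises isopentenyl diphosphate, from 86.7 ± 1.21 to 97.7 ± 3.68 CPM (0.17, adjusted p = 0.0174). PMVK, the phosphomevalonate kinase, was at 10.2 to 12.1 CPM in siCTR and at 10.4 to 13.1 CPM with siMYCN, FDPS was at 149.7 ± 7.69 and 142.9 ± 4.10 CPM, and neither passed the test.

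Further down, the genes that commit farnesyl diphosphate to sterols did not pass. FDFT1 was at 254.5 ± 6.13 CPM in siCTR and 253.7 ± 2.14 CPM with siMYCN. SQLE, the squalene epoxidase, was at 216.4 ± 3.40 and 223.3 ± 3.61 CPM. LSS, which closes squalene epoxide to lanosterol, rose from 74.7 ± 5.79 to 86.0 ± 2.42 CPM (log2 fold change 0.20, adjusted p = 0.00948). CYP51A1, the lanosterol demethylase, rose from 245.3 ± 4.22 to 293.1 ± 6.84 CPM (log2 fold change 0.26 ± 0.04, adjusted p = 0.00024). TM7SF2 (chr11:65111845-65116408, plus strand) had the largest rise of the 32 genes. It was at 11.8, 13.9 and 12.9 CPM in siCTR and at 18.6, 19.1 and 16.3 CPM in siMYCN. These groups did not overlap, and the siMYCN mean was 139.5% of the siCTR mean (log2 fold change 0.45 ± 0.08, adjusted p = 0.000389). EBP, a sterol isomerase, rose from 49.8 ± 1.21 to 55.5 ± 0.929 CPM (0.15, adjusted p = 0.0173), and SC5D, a sterol desaturase, from 62.2 ± 0.402 to 70.6 ± 4.37 CPM (0.18, adjusted p = 0.0309). MSMO1, NSDHL and HSD17B7, which together remove the methyl groups at carbon 4 of the sterol ring, were not called, nor was DHCR7, which encodes the enzyme of the last step of one route (54.3 ± 5.19 and 59.6 ± 1.96 CPM). The summed level of the 18 enzymes was 1786 to 1860 CPM in siCTR and 1950 to 2001 CPM in siMYCN.

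Of the genes that sense sterols, SREBF2 (chr22:41833079-41907307, plus strand) was at 166.6, 166.1 and 157.2 CPM in siCTR and at 184.1, 172.7 and 183.3 CPM in siMYCN. The lowest siMYCN library was above the highest siCTR library by a few CPM, and the log2 fold change was 0.14 ± 0.04 (adjusted p = 0.0152). SREBF1 (chr17:17810399-17837011, minus strand), which encodes SREBP-1, was at 25.2, 27.2 and 25.1 CPM in siCTR and 26.2, 29.4 and 24.6 CPM in siMYCN, with overlapping groups. SCAP was at 130.3, 138.1 and 126.9 CPM in siCTR and 136.6, 121.4 and 130.4 CPM in siMYCN. INSIG1, itself a well-known SREBP target, was at 54.6, 58.6 and 53.9 CPM in siCTR and 56.1, 57.5 and 55.5 CPM in siMYCN, so its siMYCN values all lay within the siCTR range. INSIG2 was at 31.5, 29.0 and 32.3 CPM in siCTR and 29.6, 28.1 and 28.2 CPM in siMYCN. The log2 fold changes of SREBF1, SCAP, INSIG1 and INSIG2 were 0.05 ± 0.07, −0.03 ± 0.06, 0.02 ± 0.05 and −0.11 ± 0.07, none of them called.

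The sterol-binding genes moved in opposite directions. STARD4 (chr5:111496033-111512590, minus strand), a soluble carrier of cholesterol, was at 134.8, 138.8 and 131.1 CPM in siCTR and 156.6, 178.9 and 166.7 CPM in siMYCN. Its siMYCN libraries were all higher (log2 fold change 0.31 ± 0.07, adjusted p = 0.0024). TMEM97 (chr17:28319200-28328685, plus strand), the sigma-2 receptor, which also binds sterols, was at 203.9, 206.6 and 193.2 CPM in siCTR and 164.6, 163.7 and 166.5 CPM in siMYCN. The siMYCN values were tightly grouped below all siCTR values, with a log2 fold change of −0.28 ± 0.04 (adjusted p = 4.4e-05).

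Among the fatty acid enzymes, ACACA, the acetyl-CoA carboxylase that makes malonyl-CoA, fell from 186.0 ± 3.83 to 156.9 ± 8.05 CPM (log2 fold change −0.24 ± 0.04, adjusted p = 0.000435). FADS2, the first desaturase of polyunsaturated fatty acid synthesis, was at 346.6, 357.8 and 339.7 CPM in siCTR and 441.9, 403.8 and 417.5 CPM in siMYCN. The siMYCN values were the higher throughout (0.27 ± 0.05, adjusted p = 0.000936). FADS1, which acts later in the same synthesis, was at 283.8 ± 5.26 and 303.0 ± 6.77 CPM and was not called. The spans of FADS1 and FADS2 in the table overlap by 29692 bp on opposite strands, so reads could be shared between them. FADS2 also overlaps FEN1, at a mean of 171.35 CPM, by 4259 bp on the same strand. FASN, the fatty acid synthase, was at 578.7, 502.8 and 480.9 CPM in siCTR and 502.9, 413.3 and 425.8 CPM in siMYCN, with overlapping groups and a log2 fold change of −0.22 ± 0.10 (adjusted p = 0.0915). SCD was at 671.2, 670.1 and 612.0 CPM in siCTR and 611.9, 606.3 and 639.2 CPM in siMYCN, which also overlapped. ACLY was at 635.1 ± 12.7 and 637.6 ± 19.3 CPM, and ELOVL6, which elongates palmitate, at 58.1 ± 1.77 and 62.6 ± 1.36 CPM, neither called.

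The siMYCN calls depended on the scaling. Over the whole table, the higher genes were 68.3% of those called. That share became 51.2% with median-ratio rescaling and 49.3% with quantile normalization. The 32 genes then gave 7 higher and 5 lower, or 7 higher and 2 lower, beside 32.9% and 32.6% of all genes tested called. The added falls after median-ratio rescaling were FDPS, FASN and SCD. Without siCTR replicate 1 only 6 of the 18 sterol enzymes were called, beside 29.4% of all genes tested. Calls held in every alternative for ACAT2, MVK, MVD, CYP51A1, TM7SF2, STARD4, TMEM97 and ACACA. HMGCS1, IDI1, LSS, EBP, SC5D and SREBF2 lost theirs under both scalings and also without single libraries: HMGCS1 without siCTR replicate 1 or siMYCN replicate 3, LSS without siCTR replicate 3, EBP without siCTR replicate 1 or siMYCN replicate 1, SREBF2 without siCTR replicate 3, siMYCN replicate 1 or siMYCN replicate 3, IDI1 without siCTR replicate 1 or 2 or siMYCN replicate 2 or 3, and SC5D without any siCTR library or siMYCN replicate 2 or 3. Their log2 fold changes ran from 0.11 to 0.18 without single libraries and from 0.08 to 0.15 under the 2 scalings. IDI1 (adjusted p = 0.0549) and SC5D (adjusted p = 0.0809) also lost their calls without the intensity trend, and SC5D without the filter on low values. FASN became called as lower without siMYCN replicate 1 (−0.31) or siHAND2 replicate 3 (−0.22), FADS1 as higher without siHAND2 replicate 3 (0.09) and DHCR7 as higher without siCTR replicate 2 (0.21). Centring each library within classes of transcript GC content gave 10 higher and 6 lower, beside 41.5% called of the 12892 genes in that fit. FADS2 was then at 0.09 (adjusted p = 0.102), SREBF2 at 0.06 (adjusted p = 0.268) and EBP at 0.07 (adjusted p = 0.207), and FDPS (−0.16), SCAP (−0.18), ACLY (−0.11) and FASN (−0.36) became called as lower.

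**Figure D3:**
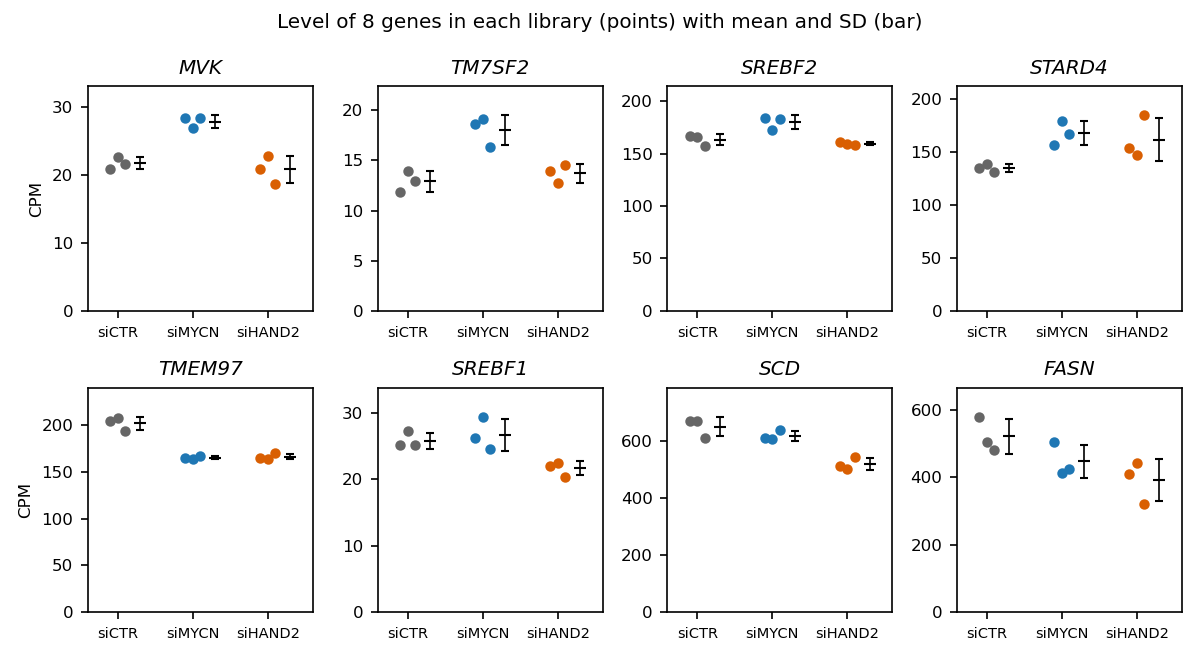
CPM of 8 genes in each library (points) with the mean and SD of each group (bars), each panel on its own axis from 0. MVK, TM7SF2 and SREBF2 were higher in siMYCN than in both other groups, STARD4 and TMEM97 differed from siCTR in both knockdowns, and SREBF1 and SCD were lowest in siHAND2.

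With siHAND2, 2 of the 32 genes rose, 9 fell and 21 did not pass. That is 34.4% called, beside 29.9% of all genes tested, of which 18.1% rose and 11.8% fell. The median log2 fold change was −0.069 over the 32 genes and 0.039 over all genes tested. The falls were largely in fatty acid synthesis, where 5 of 7 enzymes fell and none rose, beside 2 falls and 1 rise among the 18 sterol enzymes, 1 fall among the 5 sensing genes, and again a rise of STARD4 and a fall of TMEM97. The libraries did not overlap for 13 of the 32 genes (10 with siHAND2 below and 3 above), as for 42.4% of all genes tested (16.6% below and 25.8% above). Without siHAND2 replicate 3 the counts were again 2 higher and 9 lower, beside 29.8% of all genes tested called.

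FASN (chr17:82078338-82098294, minus strand) was at 410.9, 441.4 and 321.3 CPM in siHAND2, with replicate 3 the lowest of all 9 libraries. Every siHAND2 value was below the siCTR values, and the log2 fold change was −0.42 ± 0.10 (adjusted p = 0.00386), or −0.29 without replicate 3 (adjusted p = 0.0112). SCD (chr10:100347233-100364826, plus strand) was at 511.4, 503.9 and 544.2 CPM in siHAND2, clearly below both other groups. Its log2 fold change was −0.32 ± 0.05 (adjusted p = 6.1e-05), or −0.36 without replicate 3. ELOVL6 fell to 50.8 ± 1.39 CPM (−0.19 ± 0.05, adjusted p = 0.00526) and ACACA to 166.9 ± 3.96 CPM (−0.16 ± 0.04, adjusted p = 0.0139). FADS1 was at 263.4 ± 7.26 CPM (−0.11 ± 0.04, adjusted p = 0.0472), while FADS2, at 377.8, 345.4 and 319.4 CPM, overlapped siCTR and was not called. ACLY was at 603.7 ± 32.3 CPM and was not called either. Together the 7 fatty acid enzymes summed to 2570 to 2770 CPM in siCTR, 2553 to 2749 CPM in siMYCN and 2254 to 2412 CPM in siHAND2.

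Of the sterol enzymes the pair at the entry to the sterol branch fell. FDFT1 was at 217.4, 212.6 and 214.6 CPM in siHAND2, all below the lowest siCTR library at 250.2 CPM (log2 fold change −0.24 ± 0.04, adjusted p = 0.000115). SQLE was at 186.5, 186.2 and 199.1 CPM in siHAND2 and 213.1, 219.8 and 216.2 CPM in siCTR, without overlap (−0.18, adjusted p = 0.00263). ACAT2 rose to 130.2 ± 4.37 CPM (0.19 ± 0.04, adjusted p = 0.00309). MVK, at 20.9, 22.7 and 18.7 CPM, MVD, at 33.0, 34.5 and 29.0 CPM, and TM7SF2, at 13.9, 12.7 and 14.5 CPM, all overlapped siCTR. CYP51A1 reached 266.1 ± 13.9 CPM, above every siCTR library, and missed the threshold (0.12 ± 0.04, adjusted p = 0.0519).

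SREBF1 was at 22.0, 22.5 and 20.4 CPM in siHAND2, below the lowest siCTR library at 25.1 CPM, with a log2 fold change of −0.24 ± 0.07 (adjusted p = 0.0131). SREBF2, at 161.0, 158.9 and 157.9 CPM, lay within the siCTR range. SCAP was at 128.1, 124.1 and 106.3 CPM, with replicate 3 far below the other two, and its log2 fold change of −0.14 ± 0.06 was not called. INSIG1, at 53.9, 54.8 and 60.5 CPM, and INSIG2, at 30.8, 27.7 and 34.7 CPM, were highest in replicate 3 and overlapped siCTR. STARD4 was at 153.0, 146.6 and 184.2 CPM, all above siCTR, and its log2 fold change of 0.25 ± 0.07 (adjusted p = 0.0118) was 0.15 (adjusted p = 0.0344) without replicate 3. TMEM97 was at 164.8, 163.8 and 169.5 CPM, all below siCTR (−0.28 ± 0.04, adjusted p = 6.5e-05).

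Without replicate 3 the log2 fold changes were −0.24 for FDFT1, −0.21 for SQLE, 0.17 for ACAT2, −0.20 for SREBF1, −0.29 for TMEM97, −0.21 for ELOVL6, −0.16 for ACACA and −0.13 for FADS1, and each of these genes was called in that fit. Calls held in every alternative for ACAT2, TMEM97, FDFT1, SQLE, FASN, ELOVL6 and SCD. SREBF1 lost its call without siCTR replicate 2 (log2 fold change −0.21), ACACA without siCTR replicate 1 or siHAND2 replicate 1 (−0.14 in both) or without the intensity trend (adjusted p = 0.0509), STARD4 without the intensity trend (adjusted p = 0.0582), and FADS1 without any siCTR library, siMYCN replicate 1 or 3, or siHAND2 replicate 1 or 2 (−0.10 to −0.12). FADS1 also lost its call without the intensity trend (adjusted p = 0.109), without the filter on low values and in the fit of only the 2 groups compared. Without siCTR replicate 1 or siHAND2 replicate 1, 3 of the 7 fatty acid enzymes were called, beside 23.1% and 27.5% of all genes tested. With 1 library left out, genes that became called were CYP51A1 without siHAND2 replicate 2 (0.15), DHCR7 without siCTR replicate 3 (−0.22) or siHAND2 replicate 1 (−0.21) and SCAP without siHAND2 replicate 1 (−0.20). When siHAND2 replicate 3 was left out, they were smaller and not called: CYP51A1 0.07, DHCR7 −0.09 and SCAP −0.06. Of all called genes 60.6% were higher, against 47.1% with median-ratio rescaling and 47.8% with quantile normalization. Of the 32 genes, 2 were then higher and 12 or 10 lower, beside 29.3% and 28.6% of all genes tested called. FDPS was called as lower under both scalings (−0.14), and DHCR7 and SCAP under median-ratio rescaling. DHCR7 and SCAP (lower) and CYP51A1 (higher) were also called in a fit with a replicate block, and CYP51A1 with a filter at 5 CPM. Centring by GC class gave 2 higher and 15 lower, adding FDPS (−0.12), LSS (−0.13), MSMO1 (−0.13), DHCR7 (−0.22), SCAP (−0.18) and ACLY (−0.13). In that fit 38.3% of 12892 genes were called.

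Set directly against each other, siHAND2 was below siMYCN for 16 of the 32 genes and above it for none. That is 50.0% called, beside 26.9% of all genes tested, of which 15.5% were lower and 11.4% higher in siHAND2. The median log2 difference, siHAND2 minus siMYCN, was −0.156 over the 32 genes and −0.006 over all genes tested. The 16 were 10 of 18 sterol enzymes, SREBF1 and SREBF2 of the 5 sensing genes, and 4 of 7 fatty acid enzymes, and neither sterol carrier was among them. The groups did not overlap for 17 of the 32 genes (16 with siHAND2 below, and ACACA with siHAND2 above), as for 38.7% of all genes tested (21.6% below and 17.1% above).

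This comparison tests the difference between the knockdowns itself. MVK differed by −0.41 ± 0.07 (adjusted p = 0.000244), from 27.8 ± 0.92 CPM in siMYCN to 20.8 ± 2.01 CPM in siHAND2. TM7SF2 differed by −0.37 ± 0.08 (adjusted p = 0.00259), from 18.0 ± 1.48 to 13.7 ± 0.911 CPM. MVD and DHCR7 each differed by −0.30, LSS by −0.27, FDFT1 by −0.24 and SQLE by −0.23. SREBF1 differed by −0.29 ± 0.07 (adjusted p = 0.00463) and SREBF2 by −0.18 ± 0.04 (adjusted p = 0.00477). Both genes that encode SREBP precursors were thus lower in siHAND2 than in siMYCN. SREBF2 had risen against siCTR with siMYCN, and SREBF1 had fallen against it with siHAND2. In the fatty acid group ELOVL6 differed by −0.30 ± 0.05, FADS2 by −0.28 ± 0.05, SCD by −0.25 ± 0.05 and FADS1 by −0.20 ± 0.04. FASN, with wide spread in both groups, differed by −0.20 ± 0.10 and was not called (adjusted p = 0.143).

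**Figure D4:**
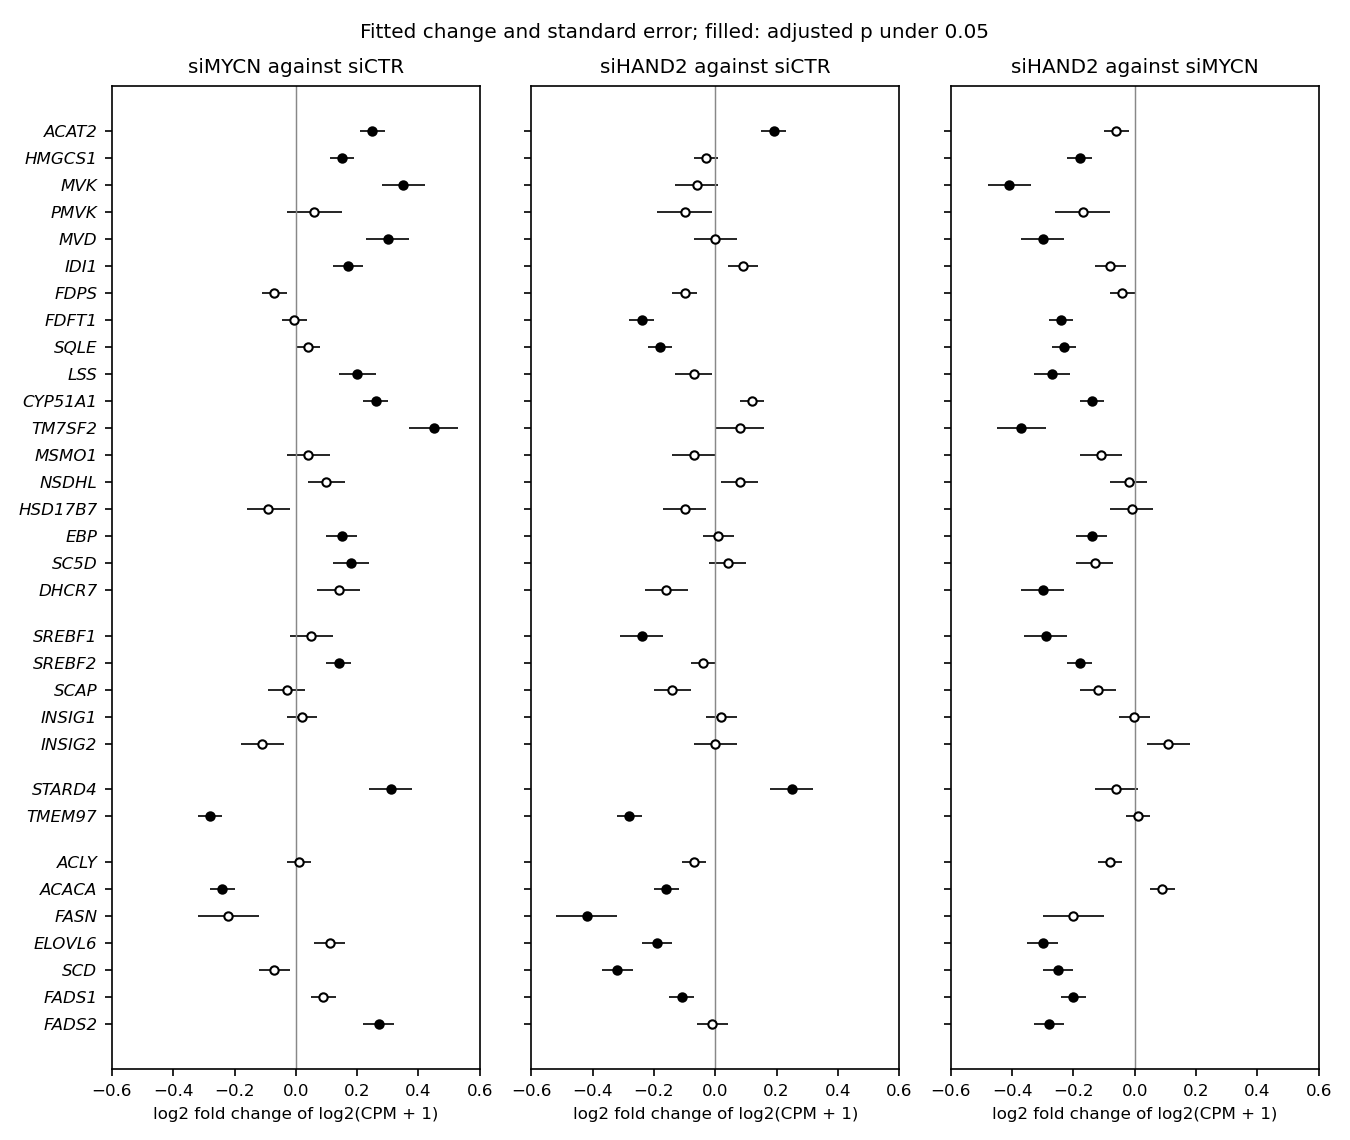
Fitted log2 fold change of each of the 32 genes on the log2(CPM + 1) scale with its standard error (bars), 1 panel per comparison, with filled points for adjusted p under 0.05. In the panel of siHAND2 against siMYCN the 16 filled points all lie below 0, from −0.41 for MVK to −0.14 for CYP51A1 and EBP.

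The 16 genes fall into 3 kinds by their comparisons with siCTR. HMGCS1, MVK, MVD, LSS, CYP51A1, TM7SF2, EBP, SREBF2 and FADS2 were called as higher in siMYCN and not called in siHAND2. FDFT1, SQLE, SREBF1, ELOVL6, SCD and FADS1 were called as lower in siHAND2 and not called in siMYCN. DHCR7 was called in neither. ACAT2, STARD4, TMEM97 and ACACA, called in the same direction in both comparisons with siCTR, were not called here. Across the 32 genes the direct difference and the GC content of the transcript had r = −0.52, which was −0.18 without siHAND2 replicate 3. Over 12892 genes r was −0.18 with it and −0.06 without it. Without that library 19 of the 32 genes were lower and none was higher, beside 24.4% of all genes tested called. The differences were then −0.34 for MVK, −0.40 for TM7SF2, −0.23 for MVD and DHCR7, −0.25 for SREBF1, −0.17 for SREBF2, −0.31 for ELOVL6, −0.29 for SCD and −0.22 for FADS1 and FADS2, all called. In that fit IDI1 (−0.13), MSMO1 (−0.18), SC5D (−0.21) and STARD4 (−0.16) became called and EBP (−0.13, adjusted p = 0.0586) was not. Centring by GC class gave 19 lower and 1 higher, and quantile normalization 15 lower and 1 higher, with ACACA the higher gene in both. Of all genes in those fits, 35.3% and 27.6% were called. CYP51A1 lost its call without siMYCN replicate 1 or 3 or siHAND2 replicate 1 or 2 (−0.11 to −0.15), and under quantile normalization (−0.10). EBP lost its call without any siMYCN library or siHAND2 replicate 2 or 3 (−0.13 to −0.15), under median-ratio rescaling (−0.13) and quantile normalization (−0.12), and with GC centring (−0.07, adjusted p = 0.227). CYP51A1 (adjusted p = 0.0771) and EBP (adjusted p = 0.0513) also lost their calls without the intensity trend, and both in the fit of only the 2 groups compared. SC5D also became called without siMYCN replicate 1 (−0.19). The other 14 calls held in every alternative.

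The promoters of these genes were searched because SREBP factors are known to act on sterol regulatory elements together with NF-Y, which binds CCAAT, and because MYCN and HAND2 bind E-boxes. RefSeq windows on GRCh38.p14 from 250 bases before to 50 after a gene's start were at hand for 28 of the 32 genes, in 38 windows, since a gene can have several starts. ACAT2, FDFT1, SQLE and FASN had none. Both strands were searched for CCAAT, for CACGTG (the E-box of MYC proteins), for CATCTG (an E-box of the kind bound by HAND proteins) and for TCACNCCAC, letters close to the classical sterol regulatory element. Matches of different motifs did not overlap in these windows. CCAAT was in 21 of 28 genes, and in 25 of 38 windows beside 34.6% of all 35093 windows. By gene, the share was 44.2% over the 10364 tested genes with a window. It was in 13 of 15 sterol enzymes, 4 of 6 fatty acid enzymes, both sterol carriers and 2 of 5 sensing genes. TCACNCCAC was in SREBF2 alone (1 of 28 genes, beside 1.33% of tested genes, and 1 of 38 windows, beside 1.13% of all windows). CACGTG was in INSIG1, LSS, SC5D and SCAP (4 of 28 genes, beside 12.8% of tested genes), and CATCTG in CYP51A1, FADS2 and LSS (3 of 28 genes, beside 13.4% of tested genes). A match says only that the letters are present, not that a factor binds there.

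The stretches that follow, 5′ to 3′ on the gene's strand from RefSeq (GRCh38.p14), were chosen after the matches were seen, to show repeated CCAAT letters and the rarer motifs, with the matched letters in capitals. The SREBF2 stretch (chr22:41832955-41833034, plus strand, 150 to 71 bases before the start) holds the only TCACNCCAC match among the 28 genes and a CCAAT on the other strand, read here as ATTGG.
SREBF2: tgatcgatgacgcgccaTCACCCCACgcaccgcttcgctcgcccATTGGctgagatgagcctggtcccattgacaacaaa
MVD, which was higher in siMYCN, has 3 CCAAT matches, in ATTGG and CCAAT orientation (chr16:88663152-88663271, minus strand, 180 to 61 bases before the start).
MVD: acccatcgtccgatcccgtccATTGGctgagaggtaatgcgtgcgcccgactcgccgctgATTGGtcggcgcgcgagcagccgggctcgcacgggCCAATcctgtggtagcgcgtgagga
HMGCS1, which was higher in siMYCN, has 2 matches, both as ATTGG (chr5:43313493-43313582, minus strand, 170 to 81 bases before the start).
HMGCS1: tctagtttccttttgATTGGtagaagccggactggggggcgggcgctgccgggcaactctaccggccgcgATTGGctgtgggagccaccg
SCD, which fell in siHAND2, has 2, both as CCAAT (chr10:100346983-100347082, plus strand, 250 to 151 bases before the start).
SCD: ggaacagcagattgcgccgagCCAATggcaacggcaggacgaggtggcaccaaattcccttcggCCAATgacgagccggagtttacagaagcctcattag
The capitals in INSIG1 (chr7:155297798-155297857, plus strand) and SCAP (chr3:47475962-47476021, minus strand), both 80 to 21 bases before a RefSeq start, mark CACGTG. Neither gene was called in any of the 3 comparisons. By the positions of the expression table, the INSIG1 and SCAP stretches lie inside their genes, and those of MVD and HMGCS1 partly so. Other RefSeq genes lie over some stretches: SREBF2-AS1 over SREBF2, INSIG1-DT over INSIG1 and LOC105377073 over SCAP.
INSIG1: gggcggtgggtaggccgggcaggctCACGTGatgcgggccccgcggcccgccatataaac
SCAP: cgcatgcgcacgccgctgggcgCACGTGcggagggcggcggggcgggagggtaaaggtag

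Genes around these pathways were followed through 6 further lists, whose counts are read against the 35.9% of all genes tested that were called with siMYCN and the 29.9% with siHAND2. Among 20 tested genes of fatty acid supply and elongation, 6 rose and 1 fell with siMYCN, and 5 rose and 2 fell with siHAND2 (35.0% called in each, near the share over all genes). Without siCTR replicate 1 or siMYCN replicate 3, 4 of these 20 genes were called with siMYCN, beside 29.4% and 28.7% of all genes tested. ACSS2, which makes acetyl-CoA from acetate, was at 19.0, 20.4 and 21.6 CPM in siCTR and 28.5, 27.3 and 29.1 CPM in siMYCN, without overlap (0.46 ± 0.07, adjusted p = 4.72e-05). In siHAND2 it was at 21.2 ± 1.36 CPM. HACD3, a dehydratase of fatty acid elongation, rose with siMYCN from 461.4 ± 6.37 to 550.7 ± 10.7 CPM. HACD1, of the same family, fell with siHAND2 from 7.14 ± 0.692 to 4.38 ± 0.332 CPM (−0.60 ± 0.09, adjusted p = 0.000106). SCD5, the second human stearoyl-CoA desaturase, rose with siHAND2 from 73.0 ± 2.16 to 89.3 ± 2.42 CPM (0.29 ± 0.04, adjusted p = 0.000127), the opposite direction to SCD. It also rose with siMYCN, to 85.4 ± 2.67 CPM (0.22 ± 0.04, adjusted p = 0.000973).

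Among 15 genes of SREBP cleavage and turnover, 3 rose and 1 fell with siMYCN (26.7% called), and 1 rose and 1 fell with siHAND2 (13.3%), both below the shares over all genes (35.9% and 29.9%). ERLIN1, an endoplasmic reticulum membrane protein, fell with siMYCN from 34.7 ± 1.12 to 27.9 ± 1.28 CPM. With siHAND2, RNF145, a sterol-responsive ubiquitin ligase, fell from 184.4 ± 6.65 to 163.2 ± 6.87 CPM. NFYA, a subunit of the CCAAT-binding factor, rose in both, from 50.7 ± 1.06 CPM to 56.4 ± 1.37 CPM with siMYCN and 57.7 ± 2.26 CPM with siHAND2. In 15 genes of other isoprenoid branches, 1 rose and 3 fell with siMYCN, and none rose and 2 fell with siHAND2, again 26.7% and 13.3%. PDSS1, which makes the side chain of coenzyme Q, fell in both, from 13.2 ± 0.238 CPM to 10.7 ± 0.265 and 10.3 ± 0.564 CPM. TRIT1, which modifies transfer RNA with an isopentenyl group, fell with siMYCN from 15.0 ± 1.00 to 12.0 ± 0.906 CPM. RABGGTB, a subunit of the enzyme that prenylates Rab proteins, fell in both, from 141.6 ± 4.48 CPM to 125.3 ± 3.86 CPM with siMYCN and 109.1 ± 11.8 CPM with siHAND2. Its siHAND2 libraries were at 101.1, 103.6 and 122.6 CPM, with replicate 3 the highest.

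Of 18 tested genes of sterol uptake, transport, storage and export, 4 rose and 2 fell with siMYCN (33.3% called, against 35.9% of all genes), and 2 rose and 2 fell with siHAND2 (22.2%, against 29.9%). SCARB1, a receptor for high-density lipoprotein, was at 38.4 ± 2.07 CPM in siCTR, 26.4, 23.8 and 25.0 CPM with siMYCN and 25.0, 26.0 and 25.3 CPM with siHAND2. Both knockdowns were lower than siCTR, by −0.60 ± 0.06 (adjusted p = 1.21e-06) and −0.58 ± 0.06 (adjusted p = 1.29e-06). STARD5, a sterol-binding protein related to STARD4, was at 2.56, 1.90 and 2.53 CPM in siCTR, 3.60, 3.45 and 4.19 CPM with siMYCN and 10.3, 11.0 and 10.4 CPM with siHAND2. It rose in both, by 0.51 ± 0.10 and 1.81 ± 0.10 (adjusted p = 1.51e-09), and the direct difference of 1.29 was called as well. No other gene of the 6 lists or of the 32 had a fold change of that size in either comparison with siCTR.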

How the data were processed

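Total RNA of LAN5 cells was sequenced in 9 libraries. The authors deposited 1 table of CPM values (reads scaled to a common library total, with 0.0001 added to each value) for 25084 genes. The submitters' processing notes name STAR 2.5.1 and Partek. Those notes name hg19 and GRCh37, but 91.4% of 18215 gene starts lie within 5000 bp of GRCh38 starts and 5.6% of 18619 within that distance of GRCh37 starts, so positions are given as GRCh38. The counting rule, use of strand and any filter are not given in the sources used here.

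In each library 79.4% to 80.9% of values up to 20 steps were whole multiples of the smallest step (within 0.02 of a step), too few for a count model. The step gave the depth, and errors of low values are counting errors only in part. The 14495 genes that reached 1 CPM in 3 or more libraries were fitted on log2(CPM + 1) with limma 3.58.1 in R 4.3.3 (1 mean per group, all 9 libraries, eBayes with intensity trend, a prior worth 10.1 degrees of freedom). All p-values are two-sided, with Benjamini-Hochberg adjustment over all genes tested and a threshold of 0.05. Lengths and GC contents of canonical transcripts came from a GRCh37 annotation by symbol, promoters from RefSeq (GRCh38.p14).

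The 32 genes, the further lists and the markers were chosen with earlier results of these data known. All 32 are named. Per-library values are given for those called against siCTR with a log2 fold change of at least 0.3 in size and for SREBF1, SREBF2, SCAP, INSIG1 and INSIG2, and for some others chosen after their values were seen. Of each further list, the 2 called genes with the smallest p per comparison with siCTR are named, except 1 that is not reported here. SPRING1 was matched under its older name C12orf49. SOAT2, CH25H and CD3E were not matched and are not analysed here.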

Additional observations from a re-analysis of the deposited data

How the results depend on the processing

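Of the calls among the 32 genes, 8 of 15 (siMYCN against siCTR), 7 of 11 (siHAND2 against siCTR) and 14 of 16 (siHAND2 against siMYCN) held in all alternatives, and no called value changed sign. Pseudocounts, filters, fits of 2 groups and omission of the trend kept the counts within 1.5 times. The count of 15 called genes for siMYCN was 9 under quantile normalization, where 32.6% of all genes tested were called. The count of 11 for siHAND2 was 17 with centring by GC class, where 38.3% of 12892 genes were called. That alternative was chosen after seeing the data. With 1 library left out the counts ran from 11 to 17, from 9 to 11 and from 14 to 19. The shares over all genes tested also moved, from 27.8% to 40.7%, from 21.3% to 29.8% and from 20.2% to 27.4%. As to pairing, libraries with the same number correlated in their deviations at 0.166, 0.076 and 0.177 (siCTR and siMYCN), 0.133, 0.039 and 0.173 (siCTR and siHAND2) and 0.305, −0.04 and 0.172 (siMYCN and siHAND2). Libraries with different numbers ran from −0.296 to 0.141, most of them negative. The deviations of the 3 replicates of a group cancel in each gene, so positive same-number values go with negative values for different numbers. These sets of values are therefore not independent. The main fit took no pairing, and whether same-numbered libraries share an effect was not tested. A fit with the replicate block called 17, 14 and 17 of the 32 genes. It called 40.7%, 35.1% and 32.3% of all genes tested, against 35.9%, 29.9% and 26.9% in the main fit. Genes that were not called and changed sign had these log2 fold changes. For siMYCN against siCTR under median-ratio rescaling, the values were SQLE −0.01, MSMO1 −0.01, SREBF1 −0.01, INSIG1 −0.04 and ACLY −0.05. For siHAND2 against siCTR under median-ratio rescaling, the values were EBP −0.03, INSIG1 −0.02 and INSIG2 −0.04. For siHAND2 against siMYCN under median-ratio rescaling, the values were HSD17B7 0.01 and INSIG1 0.02. For siMYCN against siCTR under quantile normalization, the values were PMVK −0.02, SQLE −0.02, MSMO1 −0.01, SREBF1 −0.01 and INSIG1 −0.03. For siHAND2 against siCTR under quantile normalization, the values were EBP −0.02, INSIG1 −0.02 and INSIG2 −0.03. For siHAND2 against siMYCN under quantile normalization, the values were HSD17B7 0.02 and INSIG1 0.02. For siMYCN against siCTR under centring by GC class, the values were PMVK −0.12, SREBF1 −0.11, INSIG1 −0.002 and ACLY −0.11. For siHAND2 against siCTR under centring by GC class, the values were SC5D −0.01 and INSIG2 −0.11. For siHAND2 against siMYCN under centring by GC class, the values were FDPS 0.04, NSDHL 0.02, HSD17B7 0.005, SCAP 0.003 and INSIG1 0.04. With 1 library left out, genes that were not called spanned 0 as follows. For siMYCN against siCTR, the ranges were PMVK −0.01 to 0.16, FDFT1 −0.02 to 0.02, MSMO1 −0.004 to 0.10, SREBF1 −0.02 to 0.10, SCAP −0.07 to 0.02, INSIG1 −0.005 to 0.06 and ACLY −0.02 to 0.02. For siHAND2 against siCTR, the ranges were HMGCS1 −0.05 to 0.002, MVK −0.13 to 0.01, MVD −0.05 to 0.07, EBP −0.02 to 0.03, SC5D −0.03 to 0.08, INSIG1 −0.03 to 0.05, INSIG2 −0.08 to 0.08 and FADS2 −0.07 to 0.05. For siHAND2 against siMYCN, the ranges were NSDHL −0.07 to 0.01, HSD17B7 −0.05 to 0.07, INSIG1 −0.05 to 0.03, STARD4 −0.16 to 0.01 and TMEM97 −0.01 to 0.02. The cause was not tested. Most of these effects are under 0.3 on the log2 scale, and 3 libraries per group limit what can be called.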

Other observations

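Of 12 tested genes of acyl-CoA and glycerolipid synthesis, 6 rose and 2 fell with siMYCN (66.7% called, against 35.9% of all genes tested), and 1 rose and 3 fell with siHAND2 (33.3%, against 29.9%). Without siMYCN replicate 3, 5 were called with siMYCN, beside 28.7% of all genes tested. ACSL1, which activates long-chain fatty acids to acyl-CoA, was at 135.3, 135.3 and 132.2 CPM in siCTR, 112.9, 109.3 and 112.5 CPM with siMYCN and 95.1, 94.0 and 100.8 CPM with siHAND2. The 3 groups did not overlap, and its log2 fold changes were −0.27 ± 0.04 (limma, adjusted p = 0.000134) and −0.47 ± 0.04 (adjusted p = 2.9e-07). LPIN2, a phosphatidate phosphatase, rose in both, from 20.5 ± 0.78 CPM to 25.3 ± 1.87 CPM with siMYCN and 24.7 ± 0.406 CPM with siHAND2. GPAM, which starts glycerolipid synthesis in mitochondria, fell with siHAND2 from 105.9 ± 3.31 to 91.6 ± 5.19 CPM.

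Of 14 tested genes of fatty acid oxidation, 5 rose and 3 fell with siMYCN (57.1%), and 2 rose and 2 fell with siHAND2 (28.6%, near the share over all genes). Leaving out any 1 siCTR or siMYCN library left 4 or 5 of the 8 siMYCN calls in number, and leaving out siHAND2 replicate 3 gave 7 siHAND2 calls in place of 4. Over all genes tested the called shares were then 27.8% to 31.2% and 29.8%. CPT1A, which commits fatty acids to entry into mitochondria, was at 110.0, 101.2 and 107.5 CPM in siCTR, 148.2, 141.1 and 151.5 CPM with siMYCN and 145.0, 131.5 and 133.8 CPM with siHAND2. It rose in both, by 0.46 ± 0.05 (adjusted p = 2.5e-06) and 0.36 ± 0.05 (adjusted p = 3.24e-05). HADHA, a subunit of the mitochondrial trifunctional protein that degrades long-chain fatty acids, fell in both, from 301.2 ± 9.33 CPM to 226.8 ± 6.88 and 250.7 ± 4.75 CPM. The comparisons share their control libraries.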
